A study of Mus musculus with 6 samples.

Results

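The data compare 1 pair of arrays: mouse melanocytes with activated BRAF and added ZEB1 against mouse melanocytes with activated BRAF alone. They are 2 of the 6 arrays of the series and were identified by their labels. The cells were melan-a, an immortal line of pigment cells that grew from epidermal melanoblasts of inbred C57BL/6 embryos. All 6 cultures were transduced with delta-BRAF-ER, an activated BRAF that tamoxifen switches on, so the cells called BRAF-off carry the construct too. The groups used here were BRAF activated with ZEB1, BRAF activated with TWIST1 (for 1 direct comparison), BRAF activated alone (BRAF-on) and BRAF not activated (BRAF-off), and signals with SNAIL2 and ZEB2 are given where they place a value. Total RNA was amplified from its 3′ ends and read on 1 array per group, and no array is labelled as cells given tamoxifen without the construct. With 1 array a side there is no spread between replicates, so no difference was tested: each fold describes 2 arrays, their number limits the precision, and genes are counted by size alone.

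ZEB1 is a zinc finger and homeodomain transcription factor that binds E-boxes and is best known for repressing E-cadherin during the epithelial to mesenchymal transition. BRAF is the kinase that passes RAS signals to MEK and ERK, and its activated form is a frequent oncogene of melanocytes and melanoma. In the pigment lineage MITF drives differentiation and melanin synthesis and also the survival and division of the cells. In melanoma a high level of ZEB1 with a low level of MITF has been described as a dedifferentiated, invasive state.

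Values are deposited signals on a linear scale, and the log2 ratio of 2 signals is used for comparison. A floor was placed at a signal of 63.7, the median of all probe sets without controls over the 6 arrays, and signals under it were set to it. Genes were compared when they reached the floor on at least 1 of the 2 arrays. Where the other array lay under the floor, the fold is a lower bound. Of 18193 genes with a named probe set, 10611 to 11269 lay at or above the floor on each array, with the highest number on the ZEB1-labelled one. The actin 3′ to 5′ signal ratio was 1.36 to 1.54 and that of Gapdh 0.79 to 0.84 over the 6 arrays, and the ZEB1-labelled array lay at 1.43 and 0.792. The 5′ probe set for 18S ribosomal RNA had a signal of 5288 on the ZEB1-labelled array, 4338 with TWIST1, and 8740 to 12855 on the other 4 arrays, and its part in the results was not tested.

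The label could not be checked from Zeb1 itself. The Zeb1 probe set used here had a signal of 109 on the array labelled ZEB1, against 134 in BRAF-on and 88.5 in BRAF-off, and the other 3 Zeb1 probe sets were under the floor on every array. The probe set used was highest on the ZEB2-labelled array, at 168, and the ZEB1-labelled array was the fifth of the 6. The labels do not say whether these 3′ probe sets would read the introduced sequence, so the array is called ZEB1-labelled throughout, and the others likewise. Phrases such as with ZEB1 or with TWIST1 refer to the label. Zeb2, the paralog that melanocytes normally use, had 540.2 on the ZEB1-labelled array and 806 in BRAF-on. Twist1 had 404 with ZEB1, the highest of the 6 arrays, and 338 in BRAF-on. On the TWIST1-labelled array Twist1 was at 278, below BRAF-on, so that label could not be checked from its own gene either. Snai2 had 3547 with ZEB1 against 4175 in BRAF-on. The SNAIL2-labelled array had the lowest Snai2 signal of the 6, at 3142, so that label could not be checked from its own gene. For Zeb2 the ZEB2-labelled array was the highest of the 6 with the probe set used, at 1132, within 2-fold of BRAF-on. Braf had 437 with ZEB1, the lowest of the 6 arrays, against 687 in BRAF-on, a log2 ratio of -0.65. None of these 5 genes was 2-fold apart between the ZEB1-labelled array and BRAF-on.

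On the ZEB1-labelled array, genes of DNA replication, mitosis and melanin synthesis were lower than in BRAF-on, and genes for secreted proteases, lipid carriers, interferon effectors and antigen presentation were higher. Of 11614 genes that entered the comparison, 522 (4.49%) were at least 2-fold higher and 456 (3.93%) at least 2-fold lower, and the median over all genes was a log2 ratio of 0.07. Of the higher genes 451 were measured on both arrays and 71 are bounds, and of the lower ones 427 were measured and 29 are bounds. At least 4-fold differences were found for 33 higher and 23 lower genes. Among the higher genes with several probe sets at the floor, 178 of 194 had all of them above 0 and 81 had all of them past 2-fold. Among the lower ones, 216 of 233 had all below 0 and 91 had all past 2-fold.

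**Figure D1:**
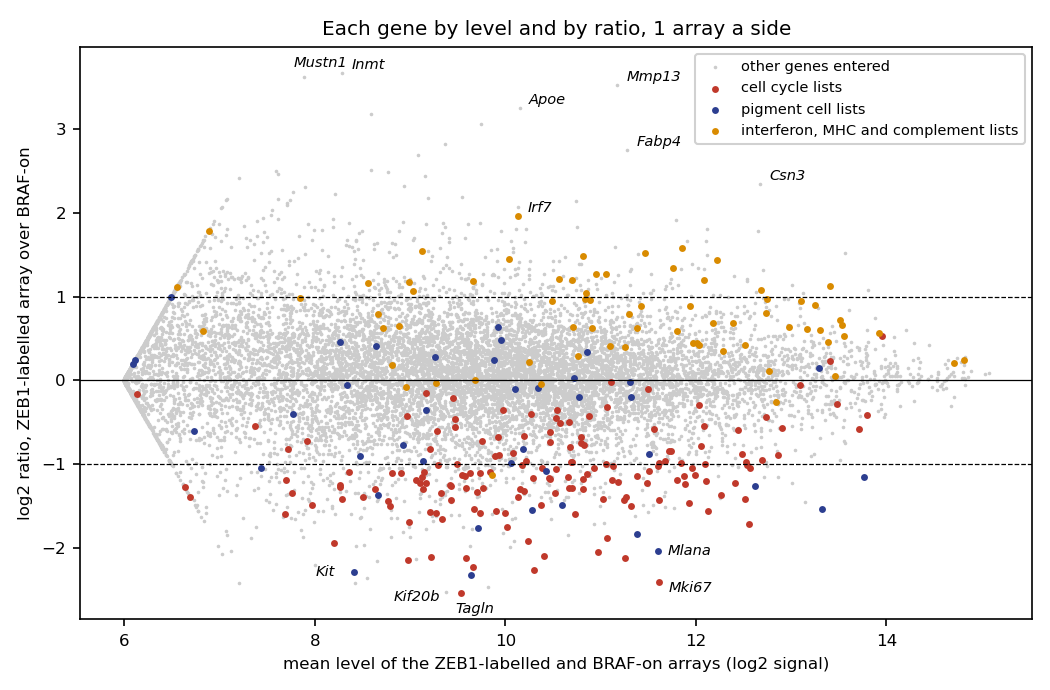
Each point is 1 of 11614 genes, with the mean of its log2 signals on the ZEB1-labelled and BRAF-on arrays across and its log2 ratio between them upwards; dashed lines mark 2-fold. Of the 163 genes of the cell cycle lists (red) 161 lie below 0, pigment cell genes (blue) lie mostly below 0, and interferon, MHC and complement genes (orange) lie mostly above 0.

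The same genes were set against BRAF-off, which shares the ZEB1-labelled array with the comparison above and is therefore not an independent check. Of the 522 higher genes, 415 (79.5%) were at least 2-fold above BRAF-off too, and none was at or below it. Of the 456 lower genes, 398 (87.3%) were at least 2-fold below BRAF-off, and 2 were at or above it. Over all 11508 genes compared with BRAF-off, 7.06% were at least 2-fold higher and 5.20% at least 2-fold lower. The ZEB1-labelled array was the highest of the 6 for 454 of the 522 genes (87.0%) and for 30.2% of all genes entered, a share that the choice of high genes itself raises. It was the lowest of the 6 for 343 of the 456 lower genes (75.2%) and for 19.5% of all genes entered. For 152 genes its signal was at least 2-fold above each of the other 5 arrays, and for 100 genes at least 2-fold below each of them.

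Genes of the cell division cycle lay lower together. They were divided into 8 lists by role, with 163 members entered, of which 102 were 2-fold lower or more relative to BRAF-on, none was 2-fold higher, and 161 were below 0. The same shares over all genes were 3.93%, 4.49% and 43.3%, with 56.7% above 0. They are the shares to set beside every list counted over BRAF-on below. The median of the 163 was a log2 ratio of -1.13 over BRAF-on and -1.16 over BRAF-off, and 138 of them had their lowest signal of the 6 arrays on the ZEB1-labelled one. In RNA from whole cultures, fewer cells of a kind and less RNA per cell cannot be told apart, which holds for every group below.

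Replication begins when the origin recognition complex, CDC6 and CDT1 load the MCM helicase onto DNA. Of 23 genes of this loading step, 14 were at least 2-fold lower, all 23 were below 0, and the median log2 ratio was -1.11. Cdc6, the loading ATPase, had a signal of 287 on the ZEB1-labelled array, against 1231 in BRAF-on and 1423 in BRAF-off, a 4.29-fold lower level than BRAF-on. Mcm2, a subunit of the helicase, had 1120.2 with ZEB1, against 4117 in BRAF-on and 4972 in BRAF-off. With TWIST1, SNAIL2 and ZEB2 Cdc6 lay at 859, 1504 and 1219, all above the ZEB1-labelled value.

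The genes that synthesise DNA and supply nucleotides had 15 of 26 members at least 2-fold lower (median -1.11), and 25 of the 26 were lowest of the 6 arrays on the ZEB1-labelled one. Pola1, the catalytic subunit of the polymerase that starts each new strand, had a signal of 369 with ZEB1, against 1607 in BRAF-on and 1803 in BRAF-off (4.36-fold lower than BRAF-on). Its signals with TWIST1, SNAIL2 and ZEB2 were 1410.4, 1120.3 and 1632, so here too the ZEB1-labelled array was the lowest. Rrm2, the limiting subunit of ribonucleotide reductase, had 3329 with ZEB1 against 10923 in BRAF-on. Tyms, the thymidylate synthase, was at least 2.63-fold lower, with its ZEB1-labelled signal under the floor.

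Cyclins, their kinases and activators had 7 of 18 members at least 2-fold lower (median -0.97). Ccne2, an E cyclin of the entry into S phase, had 240.2 on the ZEB1-labelled array, against 1058 in BRAF-on and 1243 in BRAF-off. Ccne1 had a log2 ratio of -1.14, the phosphatase gene Cdc25a one of -1.28 and Ccna2, the cyclin of S and G2 phase, one of -1.24. Ccnd1, the D cyclin that growth factor signals control, did not share this: its signal was 8589 on the ZEB1-labelled array and 8944 in BRAF-on. Of the E2F, MYB and FOXM1 transcription factors, which drive the genes of S phase and mitosis, 8 of 16 were at least 2-fold lower with a median of -0.99. E2f7 (-1.58), E2f8 (-1.57), Foxm1 (-1.44) and Mybl2 (-1.27) led by log2 ratio among those measured on both arrays.

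Mitotic genes had the largest single differences of the division genes. Kif20b, a kinesin of cytokinesis, had a signal of 307 on the ZEB1-labelled array, against 1781 in BRAF-on and 1569.9 in BRAF-off, 5.81-fold lower than BRAF-on. On the other factor arrays Kif20b lay at 1569 with TWIST1, 241 with SNAIL2 and 1549 with ZEB2, so the SNAIL2-labelled array was lower still. Mki67, the proliferation antigen that coats mitotic chromosomes, had 1357 on the ZEB1-labelled array, against 7199 in BRAF-on and 7677 in BRAF-off. Its signal was 2107 with SNAIL2 and 5422 with TWIST1, and the ZEB1-labelled array was the lowest. Of the 26 spindle, cytokinesis and mitotic kinase genes 19 were at least 2-fold lower, among them Smc2 and Ncapg of condensin at -2.12 and -1.59, Hmmr at -1.92 and Kif11, the motor that separates the spindle poles, at -1.54.

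At the kinetochore, where chromosomes attach to the spindle, 17 of 24 genes were at least 2-fold lower, with a median of -1.25. Cenpf had 578 on the ZEB1-labelled array, against 2771 in BRAF-on and 2317 in BRAF-off. The motor gene Cenpe had 374 with ZEB1, against 1750.0 in BRAF-on and 1559 in BRAF-off. As with Kif20b, both were lower with SNAIL2, at 287 and 172, than on the ZEB1-labelled array. The spindle checkpoint kinases Ttk and Bub1 had log2 ratios of -1.66 and -1.60. For homologous recombination and replication stress 14 of 19 genes were at least 2-fold lower, with a median of -1.20, and all 19 were lowest of the 6 arrays on the ZEB1-labelled one. For chromatin assembly and maintenance methylation 8 of 11 were at least 2-fold lower, with a median of -1.34, and all 11 were lowest of the 6. Hells, a chromatin remodeller, had 655 with ZEB1 against 2792 in BRAF-on, and Uhrf1, which guides DNA methylation after replication, 1523 with ZEB1 against 4313 in BRAF-on. Lmnb1, the lamin whose loss is used as a marker of senescence, had 559.6 on the ZEB1-labelled array, against 1645 in BRAF-on and 1311 in BRAF-off.

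The promoters of 4 of these genes are shown because they carry sequence elements known from the promoters of division genes. Each line holds 100 bases upstream of the RefSeq start in GRCm38.p6, written 5′ to 3′ on the gene's strand. Capitals mark the cell cycle homology region (CHR, TTTGAA) and the CCAAT box for Mki67 and Kif11, and the E2F element GCGGGAA for Cdc6 and Pola1, on either strand.
Mki67: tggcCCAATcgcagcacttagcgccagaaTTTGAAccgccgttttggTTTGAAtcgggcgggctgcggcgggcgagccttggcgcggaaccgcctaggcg
Kif11: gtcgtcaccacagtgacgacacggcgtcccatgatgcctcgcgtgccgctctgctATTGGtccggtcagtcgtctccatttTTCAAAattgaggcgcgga
Cdc6: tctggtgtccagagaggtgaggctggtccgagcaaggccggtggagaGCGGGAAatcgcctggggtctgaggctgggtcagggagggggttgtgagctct
Pola1: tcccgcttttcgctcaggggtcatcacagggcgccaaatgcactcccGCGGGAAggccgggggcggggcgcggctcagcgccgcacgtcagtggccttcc
The windows are chr7:135716425-135716524 on the minus strand for Mki67, chr19:37376282-37376381 on the plus strand for Kif11, chr11:98907966-98908065 on the plus strand for Cdc6 and chrX:93632224-93632323 on the minus strand for Pola1. The Mki67 window holds the CHR letters 2 times and a CCAAT box, and the Kif11 window holds 1 of each.

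Counted over the 300 bases from 250 before to 50 after each start, TTTGAA on either strand stood in 88.5% of 26 promoters of the spindle list and 12 of 24 promoters of the kinetochore list, against 11.9% of the 12122 promoters of all genes entered. TTTGAA stood in 14.8% of 27 promoters of the DNA synthesis list, near the share of all genes, and in 41.7% of 12 of the chromatin assembly list. A CCAAT box stood in 69.2% of the spindle, 79.2% of the kinetochore, 40.7% of the DNA synthesis and 66.7% of the chromatin assembly promoters, against 37.7% of all. The E2F letters stood in 29.6% of the DNA synthesis, 33.3% of the chromatin assembly, 16.7% of the kinetochore and 3.8% of the spindle promoters, against 8.2% of all. Over the 465 promoters of all genes at least 2-fold lower the shares were 24.5% for TTTGAA, 50.1% for CCAAT and 16.8% for the E2F letters. These 3 motifs do not overlap each other in their letters, and a match is a description of the window. The E-box CACCTG stood in 13.5% of the 465 promoters of the lower genes, against 17.7% of all. Promoters were listed for 88.5% of the spindle genes, 87.5% of the kinetochore genes, 88.5% of the DNA synthesis genes, 81.8% of the chromatin assembly genes, 82.5% of the lower genes and 81.3% of all genes entered. For the helicase loading and recombination lists fewer than 80% had one, so no share is given.

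**Figure D2:**
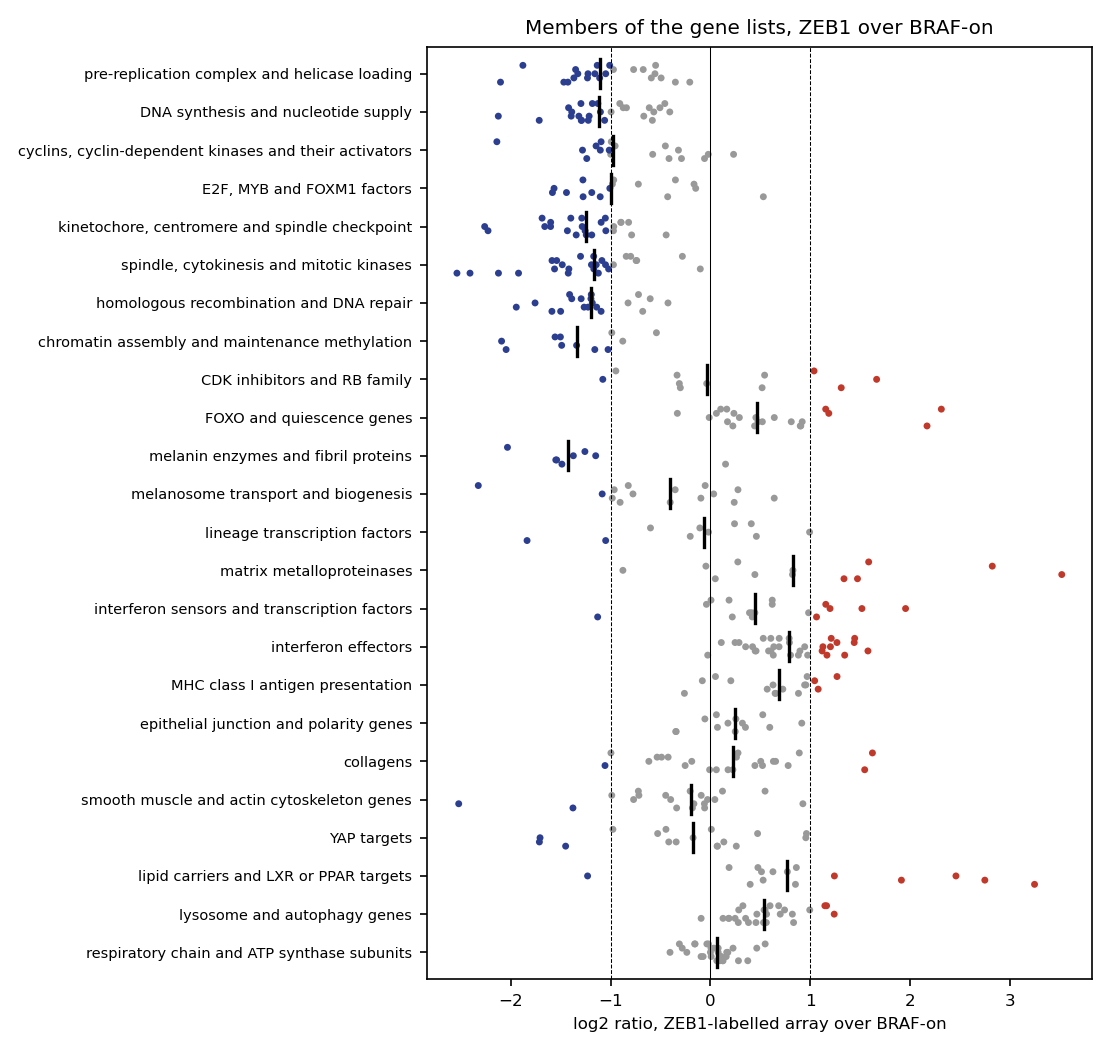
Each point is a member of a gene list at its log2 ratio of the ZEB1-labelled array over BRAF-on, red where at least 2-fold higher and blue where at least 2-fold lower; the black bars are the list medians. The 8 cell cycle lists have medians between -1.34 and -0.97, the melanin list -1.43, and the respiratory chain list, shown as a list of steady genes, 0.07.

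Genes that hold cells out of the cycle were divided. Of 11 CDK inhibitor and RB family genes 3 were at least 2-fold higher and 1 was lower (median -0.04). Cdkn1a, which encodes p21, had a signal of 2287 on the ZEB1-labelled array, against 921 in BRAF-on and 653 in BRAF-off, and was the highest of the 6. With TWIST1 Cdkn1a was at 598, the lowest of the 6. Cdkn2b, which encodes p15, had 1457 with ZEB1, against 709 in BRAF-on and 724 in BRAF-off. Cdkn1c, which encodes p57, had 231 with ZEB1, against 72.8 in BRAF-on and 117 in BRAF-off. Cdkn3, a phosphatase gene that is itself expressed with division, was lower, with a log2 ratio of -1.08. Cdkn1b, which encodes p27, differed little, at 2407 with ZEB1 and 2468 in BRAF-on. Of 19 targets of p53, 4 were at least 2-fold higher and 1 was lower (median 0.15). Besides Cdkn1a, these were Gadd45a (1.38), Trp53inp1 (1.28) and Sesn1 (1.15), with Aen (-1.28) lower, while Mdm2, a direct p53 target, lay at 1211 with ZEB1 and 1248 in BRAF-on.

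Genes tied to FOXO factors and quiescence were higher as a group: 4 of 22 (18.2%, against 4.49% of all genes) were at least 2-fold higher. None was 2-fold lower, 20 (90.9%, against 56.7% of all genes) were above 0, and the median was 0.47. Pik3ip1, an inhibitor of PI3 kinase, had 1091 on the ZEB1-labelled array, against 219 in BRAF-on and 229 in BRAF-off. On the other factor arrays Pik3ip1 lay between 315 and 359, so the ZEB1-labelled array was the highest of the 6. Mxd4, a MAX partner that opposes MYC, had 1238 with ZEB1, against 275 in BRAF-on and 445 in BRAF-off. Myc itself had 850.2 on the ZEB1-labelled array and 1663 in BRAF-on, a log2 ratio of -0.97. Ccng2 (1.19) and Hbp1 (1.16), 2 antiproliferative genes, were also past 2-fold. Of 13 genes of the BCL2 family 3 were at least 2-fold higher and none 2-fold lower, with a median of 0.28. All 3 encode proteins of the BH3-only class, which promote apoptosis: Bcl2l11, known as BIM, had 1589.5 with ZEB1, against 539 in BRAF-on and 535 in BRAF-off, Bmf a log2 ratio of 1.35 and Bad one of 1.08.

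Pigment cell genes were lower, above all those for melanin itself. Of the 8 genes for melanin enzymes and the fibrils on which pigment is laid, 7 lay 2-fold or more below BRAF-on, and the median was -1.43. Against BRAF-off the same count was 7 and the median -2.17. BRAF-on lay below BRAF-off for each of these 7 genes, so the ZEB1-labelled array was further from BRAF-off than from BRAF-on. Mlana, which encodes a melanosome protein, had a signal of 1533 on the ZEB1-labelled array, against 6269.6 in BRAF-on and 11194 in BRAF-off. Tyr, the rate-limiting enzyme of melanin synthesis, had 922 with ZEB1, against 2583 in BRAF-on and 5366 in BRAF-off. Dct and Tyrp1, enzymes of later steps, had 9319 with ZEB1 against 20659.7 in BRAF-on and 5999.7 with ZEB1 against 17439 in BRAF-on. All 7 remained above the floor on the ZEB1-labelled array, with Oca2, a melanosome transporter, at 252. Gpnmb, a melanosome glycoprotein gene that lysosomes share, was the 1 exception in this list at 10585 with ZEB1 and 9524 in BRAF-on.

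Upstream of these genes the lineage factors went separate ways. Mitf had 1410.3 on the ZEB1-labelled array, against 5036 in BRAF-on and 7191 in BRAF-off, 3.57-fold lower than BRAF-on. Sox10, which activates Mitf, had 2375 with ZEB1, against 2730.2 in BRAF-on and 3777 in BRAF-off. Pax3, another activator of Mitf, had 2514 with ZEB1, against 2546 in BRAF-on and 2945 in BRAF-off. Both lay within 2-fold of BRAF-on, while Lef1, a WNT factor that works with MITF, was lower with a log2 ratio of -1.05. Over the 10 lineage factors 2 were at least 2-fold lower, and the median was -0.06. Of 7 receptors of growth and differentiation 2 were at least 2-fold lower. Kit, the stem cell factor receptor, had 154 on the ZEB1-labelled array, against 751 in BRAF-on and 1316 in BRAF-off. Mc1r, the melanocortin receptor, had 456 with ZEB1, against 1547 in BRAF-on and 2399.6 in BRAF-off. Both are known targets of MITF, as is Trpm1, a channel gene, at 357 with ZEB1, against 1787 in BRAF-on and 2483 in BRAF-off. Of 15 genes of melanosome transport and biogenesis 2 were at least 2-fold lower, Trpm1 and Rab32 (-1.08), with a median of -0.40. Mreg, a melanosome transport gene found among the 15 largest differences, had 148 with ZEB1, against 793 in BRAF-on and 1446 in BRAF-off.

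The promoters of Tyr and Tyrp1 are shown because MITF is known to bind the M-box there, an extended E-box with the core CATGTG, in capitals.
Tyr: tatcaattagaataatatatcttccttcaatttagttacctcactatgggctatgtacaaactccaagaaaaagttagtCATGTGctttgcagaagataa
Tyrp1: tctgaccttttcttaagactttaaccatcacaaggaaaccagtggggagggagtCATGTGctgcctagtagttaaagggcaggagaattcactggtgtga
The windows of 100 bases upstream of the start are chr7:87493513-87493612 on the minus strand for Tyr and chr4:80834113-80834212 on the plus strand for Tyrp1 in GRCm38.p6. CATGTG on either strand stood in 8.5% of the promoters of all genes entered. Promoters were listed for 5 of the 8 melanin genes, too few for a share.

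Genes for secreted proteases were higher, and those of 1 cluster on chromosome 9 led. Of 12 matrix metalloproteinase genes 5 (41.7%, against 4.49% of all genes) were at least 2-fold higher, none 2-fold lower, and the median was 0.83. Mmp13, a collagenase, had a signal of 7843 on the ZEB1-labelled array, against 683 in BRAF-on and 86.1 in BRAF-off, 11.5-fold above BRAF-on. The next highest array was TWIST1 at 1137, and SNAIL2 and ZEB2 lay at 261 and 373, below BRAF-on. Mmp3, a stromelysin, had 1756 with ZEB1, against 248 in BRAF-on and 27.4 in BRAF-off, under the floor. With TWIST1 Mmp3 was at 1192, the second highest.

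Mmp10, the second stromelysin, had 6592 on the ZEB1-labelled array, against 2606 in BRAF-on and 38.4 in BRAF-off, under the floor. Mmp1a, an interstitial collagenase, had 2628 with ZEB1, against 946 in BRAF-on and 10.1 in BRAF-off, again under the floor, and 2313 with TWIST1. Each of these 4 genes was thus lowest in BRAF-off, at least 2-fold above it in BRAF-on, and at least 2-fold higher again on the ZEB1-labelled array. Activation of BRAF alone gave such a difference over BRAF-off for 1.04% of all genes, and BRAF-on stands in both ratios. Outside the cluster, Mmp19 had 242 with ZEB1, against 80.5 in BRAF-on and 57.5 in BRAF-off, and Mmp14, the membrane-bound activator of proMMP2, 7923 with ZEB1, against 4465 in BRAF-on and 5073 in BRAF-off. Mmp2, a gelatinase, went the other way with 405 with ZEB1, against 744 in BRAF-on and 937 in BRAF-off.

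The 4 promoters are shown because the genes are neighbours on chromosome 9 and are known targets of AP-1, the FOS and JUN dimer that ERK signalling feeds. Capitals mark the AP-1 letters TGAGTCA, read on either strand, in the 100 bases given.
Mmp13: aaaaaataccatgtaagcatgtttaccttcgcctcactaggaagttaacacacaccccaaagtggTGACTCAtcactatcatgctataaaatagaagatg
Mmp3: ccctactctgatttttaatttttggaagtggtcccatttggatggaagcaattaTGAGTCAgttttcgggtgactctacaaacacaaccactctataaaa
Mmp1a: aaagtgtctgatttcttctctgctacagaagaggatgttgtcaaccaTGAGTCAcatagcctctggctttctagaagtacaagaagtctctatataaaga
Mmp10: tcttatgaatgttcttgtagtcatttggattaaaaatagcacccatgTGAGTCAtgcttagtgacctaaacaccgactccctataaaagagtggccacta
The windows are chr9:7272414-7272513 on the plus strand for Mmp13, chr9:7445722-7445821 on the plus strand for Mmp3, chr9:7464021-7464120 on the plus strand for Mmp1a and chr9:7502232-7502331 on the plus strand for Mmp10 in GRCm38.p6. The AP-1 letters begin 35, 46, 73 and 63 bases upstream of the start, in that order. They stood in 3.9% of the promoters of all genes entered. Only 8 of the 12 metalloproteinase genes had a listed promoter, so no share of the list is given.

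The AP-1 factors themselves lay closer to BRAF-on. None of 9 AP-1 genes was 2-fold apart in either direction, against 8.42% of all genes entered, and the median was 0.20. Fosl1, the FOS member that ERK induces most steadily, had 1142 on the ZEB1-labelled array, against 995 in BRAF-on and 412 in BRAF-off. Jun had 1425 with ZEB1, against 1414 in BRAF-on and 963 in BRAF-off, and Junb had the largest ratio of the 9 at 0.87. Of 24 ERK output and feedback genes 2 were at least 2-fold higher and none lower, with a median of 0.24. These were the early response genes Egr3, with 667 with ZEB1, against 194 in BRAF-on and 137 in BRAF-off, and Ier3, with 5037 with ZEB1, against 2355 in BRAF-on and 1581 in BRAF-off. The ERK phosphatase genes Dusp6 (0.37) and Dusp5 (0.73) and the inhibitor gene Spry2 (0.60) had ratios within 2-fold. No gene of the 11 of the RAS, RAF, MEK and ERK list was 2-fold apart.

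The same order of BRAF-off, BRAF-on and ZEB1-labelled from low to high was seen in other genes of varied function. They and the metalloproteinase genes of the cluster were picked as the 10 largest ratios over BRAF-off among genes 2-fold above BRAF-on. That choice itself favours this order. Not every large difference had it: Apoe had 368 in BRAF-on and 707 in BRAF-off. Serpinb2, which encodes the plasminogen activator inhibitor PAI-2, had 3948 on the ZEB1-labelled array, against 1310.3 in BRAF-on and 7.92 in BRAF-off, under the floor. Fabp4, a fatty acid carrier of fat cells and macrophages, had 6449 with ZEB1, against 959 in BRAF-on and 15.4 in BRAF-off, under the floor, and the other defining fat cell genes were under the floor on the ZEB1-labelled array (5 of the 6 markers named by a probe set). Csn3, a milk casein gene, had 14634 with ZEB1, against 2894 in BRAF-on and 430.1 in BRAF-off. Gch1, the first enzyme of tetrahydrobiopterin synthesis, had 1227 with ZEB1, against 378 in BRAF-on and 65.6 in BRAF-off. The neurofilament gene Nefm had 1376 with ZEB1, against 423 in BRAF-on and 40.9 in BRAF-off, below the floor in BRAF-off. Evi2a, a membrane protein gene within an intron of Nf1, had 1840.4 with ZEB1, against 533 in BRAF-on and 54.5 in BRAF-off. All 6 were highest of the 6 arrays on the ZEB1-labelled one. The second highest was the TWIST1-labelled array for Serpinb2, Fabp4, Gch1 and Evi2a, and BRAF-on for Csn3 and Nefm.

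**Figure D3:**
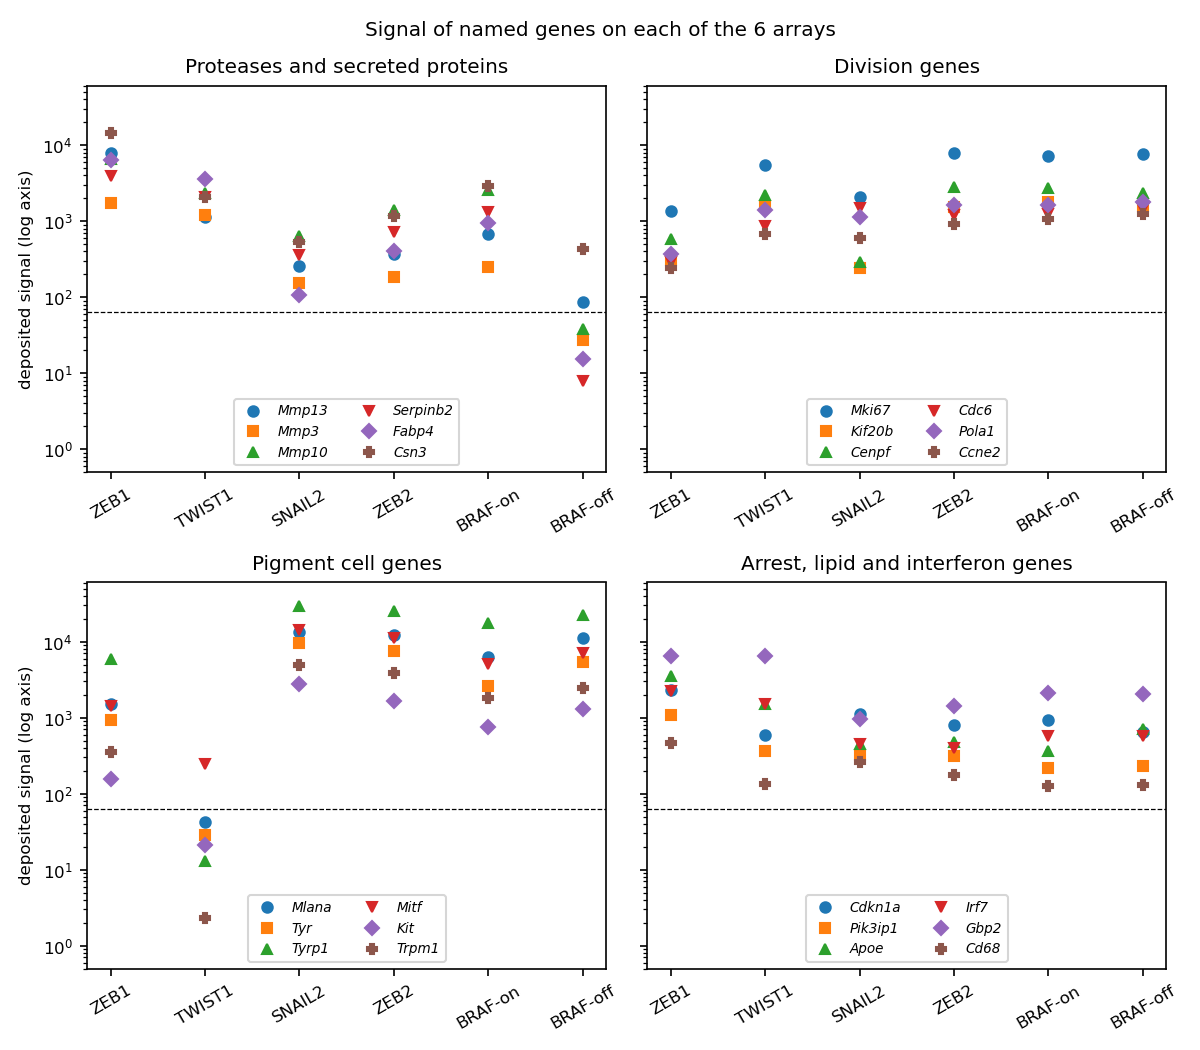
Deposited signal (log axis) of 24 named genes on each of the 6 arrays, with the floor of 63.7 as a dashed line; each symbol is 1 gene on 1 array, and there are no replicates. The ZEB1-labelled array is highest for the 6 protease and secreted protein genes, and for the pigment genes it lies between the TWIST1-labelled array and the other 4.

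Protease inhibitors and other proteases gave a mixed picture. Of 12 genes for protease inhibitors and plasminogen activation 3 were at least 2-fold higher and 1 was lower (median 0.45). Besides Serpinb2 these were Serping1, the complement C1 inhibitor, at least 3.44-fold higher, and Slpi, a leukocyte protease inhibitor, with 759 with ZEB1 against 342 in BRAF-on. The cystatin gene Cst6 was lower (-1.09). Timp1, the main inhibitor of secreted metalloproteinases, had 8813 with ZEB1, against 7741 in BRAF-on and 6219 in BRAF-off. Of 14 ADAM, ADAMTS and heparanase genes none was 2-fold higher and 2 were lower: Adam12, a membrane sheddase, had 339 with ZEB1, against 899.6 in BRAF-on and 1203 in BRAF-off, and Hpse was at least 2.41-fold lower. The median of this list was -0.15 over BRAF-on and 0.25 over BRAF-off, and it was 0.12 over BRAF-on with the floor at the 60th percentile.

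Interferon-related genes were higher as a group. Of 71 genes of interferon sensing, interferon response, class I antigen presentation and complement, 22 (31.0%) were at least 2-fold higher than BRAF-on. At least 2-fold lower was 1 (1.41%), and the shares over all genes were 4.49% and 3.93%. Above 0 were 66 (93.0%, against 56.7% of all genes). The median was 0.69, and that of TWIST1 over BRAF-on was 0.59. Over BRAF-off 37 were at least 2-fold higher and 1 was lower (median 1.01), against 7.06% and 5.20% of all genes. The ZEB1-labelled array was the highest of the 6 for 47 of them, and for 30.2% of all genes entered.

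Irf7, which amplifies type I interferon production, had a signal of 2218 on the ZEB1-labelled array, against 572 in BRAF-on and 579 in BRAF-off. Its signal with TWIST1 was 1518, and with SNAIL2 and ZEB2 it was 457 and 394. Among 17 sensors and transcription factors 5 were at least 2-fold higher, the others being the nucleic acid sensor genes Zbp1 (1.52) and Dhx58 (1.20) and the factors Irf8 (1.16) and Stat2 (1.06). Irf8, a factor of myeloid cells, had 562 on the ZEB1-labelled array, against 252 in BRAF-on and 60.8 in BRAF-off, the last under the floor. Cgas, the sensor of cytosolic DNA, was the 1 gene at least 2-fold lower, with 629 with ZEB1, against 1376 in BRAF-on and 1491 in BRAF-off, and was the lowest of the 6.

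Of 33 effectors 10 were at least 2-fold higher, none was 2-fold lower, 32 were above 0, and the median was 0.79. Gbp2, a guanylate-binding protein gene, had 6389 with ZEB1, against 2139 in BRAF-on and 2036 in BRAF-off, and 6413 with TWIST1, so the TWIST1-labelled and ZEB1-labelled arrays lay together. Oasl1 (1.45), the immunity-related GTPase gene Igtp (1.44), Mx1 (1.21), Bst2 (1.20) and Ifit3 (1.13) were also past 2-fold. In class I antigen presentation 3 of 16 genes were at least 2-fold higher, with a median of 0.69: Psmb9 (1.27) and Psmb8 (1.05), subunits of the immunoproteasome, and Tapbp (1.08), which loads peptides. Psmb9 had 3069.9 on the ZEB1-labelled array, 1274 in BRAF-on and 802 in BRAF-off. Of 5 complement and Fc receptor genes 4 were at least 2-fold higher with a median of 1.48. C1s1 and C1ra, proteases of the classical pathway, had 950.3 with ZEB1 against 327 in BRAF-on and 1219 with ZEB1 against 535 in BRAF-on, and Fcgrt, the neonatal Fc receptor, 3016 with ZEB1 against 1078 in BRAF-on.

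The promoters of Gbp2 and Ifit3 are shown with the letters of the interferon element (GAAA, any 2 bases, GAAA, on either strand) in capitals.
Gbp2: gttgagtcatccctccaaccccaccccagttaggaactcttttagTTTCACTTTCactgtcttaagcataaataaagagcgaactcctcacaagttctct
Ifit3: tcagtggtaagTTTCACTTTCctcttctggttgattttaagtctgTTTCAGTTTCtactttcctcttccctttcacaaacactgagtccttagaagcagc
The windows are chr3:142620559-142620658 on the plus strand for Gbp2 and chr19:34583362-34583461 on the plus strand for Ifit3 in GRCm38.p6, and the Ifit3 window holds the element 2 times. It stood in 3.0% of the promoters of all genes entered and in 21.4% of 14 promoters of the antigen presentation list, of whose genes 81.3% had one. Promoters were listed for 25 of the 33 effector genes, too few for a share.

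Few secreted immune factors were past 2-fold. Of 22 chemokine and cytokine genes 2 (9.09%) were at least 2-fold higher and 1 (4.55%) was lower, against 4.49% and 3.93% of all genes. Above 0 were 18 of the 22 (81.8%, against 56.7% of all genes), with a median of 0.26. Over BRAF-off 5 were at least 2-fold higher and none was lower, with a median of 0.55. Ccl5, a chemokine for T cells and monocytes, had 6839.6 with ZEB1, against 2167 in BRAF-on and 1008 in BRAF-off. Il18 had 2495 with ZEB1, against 1181 in BRAF-on and 1123 in BRAF-off. Il6, a cytokine of the senescence secretory programme, was lower at 105 with ZEB1, against 259.9 in BRAF-on and 203 in BRAF-off, and stood at 561 with TWIST1. Igfbp4, a binding protein that restrains insulin-like growth factors, had 694 with ZEB1, against 225 in BRAF-on and 151 in BRAF-off. Nrg1, the ligand of ERBB3, was at least 2.42-fold lower.

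Several genes better known from blood cells were among the largest differences. Mpeg1, a perforin-like gene of macrophages, had 1377 on the ZEB1-labelled array, against 213 in BRAF-on and 219 in BRAF-off. Cd53, a leukocyte tetraspanin, had 1028 with ZEB1, against 184 in BRAF-on and 16.2 in BRAF-off, the last under the floor. Fermt3, the kindlin of blood cells, had 532 with ZEB1, against 107 in BRAF-on and 7.76 in BRAF-off, again under the floor in BRAF-off. Plac8 had 918 with ZEB1, against 161 in BRAF-on and 159.8 in BRAF-off. Bounds were found for S100a8, a calgranulin of neutrophils (at least 5.35-fold higher), Itgb7, an integrin chain of lymphocytes (4.44-fold at least), and Prkcb, a protein kinase C gene (4.19-fold at least). All 7 were highest of the 6 arrays on the ZEB1-labelled one. On the TWIST1-labelled array Mpeg1 was at 782, Plac8 at 529, Cd53 at 286, S100a8 at 162, Fermt3 at 119 and Itgb7 at 111. Each of these was above BRAF-on too, while Prkcb was under the floor there. The log2 ratio of ZEB1-labelled over TWIST1-labelled was 0.82 for Mpeg1 and 0.80 for Plac8, within 2-fold, and past 2-fold for the other genes.

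The macrophage marker list was read beside them. Of its 11 genes 5 entered, all 5 above 0, 1 past 2-fold, with a median of 0.64. Their summed signal over the 11 was 1457 on the ZEB1-labelled array, 933 with TWIST1, 823 with SNAIL2, 872 with ZEB2, 751 in BRAF-on and 841 in BRAF-off. The leukocyte-defining Ptprc lay at 1.11 with ZEB1 and 2.27 in BRAF-on, and Adgre1, Itgam, Cd14, Aif1 and Tyrobp were under the floor on both arrays too. Cd68, a lysosomal protein gene that other cells also express, was the 1 past 2-fold at 466 with ZEB1, against 128 in BRAF-on and 131 in BRAF-off. Of the 6 lymphocyte markers named by a probe set 5 were under the floor on the ZEB1-labelled array. Their part in the interferon and leukocyte gene differences was not tested.

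Lipid carrier genes were higher. Of 15 genes for lipid carriers and targets of LXR or PPAR receptors 5 were at least 2-fold higher and 1 lower, 14 were above 0, and the median was 0.77. Apoe, the apolipoprotein that carries cholesterol out of cells, had 3498 on the ZEB1-labelled array, against 368 in BRAF-on and 707 in BRAF-off, 9.50-fold above BRAF-on. With TWIST1 Apoe was at 1514, and with SNAIL2 and ZEB2 it was at 456 and 474. Apoc1, its neighbour in the same gene cluster, had 459 with ZEB1, against 83.4 in BRAF-on and 84.5 in BRAF-off. Apod, a lipocalin, had 6892 with ZEB1, against 1829 in BRAF-on and 2519.8 in BRAF-off, and 6163 with TWIST1. Angptl4, an inhibitor of lipoprotein lipase, had a log2 ratio of 1.24. Fabp5, the fatty acid carrier of skin cells, was lower at 5369 with ZEB1, against 12591 in BRAF-on and 13747 in BRAF-off. Genes that make cholesterol and fatty acids had 1 of 27 at least 2-fold lower, Idi1 of the isoprenoid pathway (-1.16), none 2-fold higher, and a median of -0.20, with 22 below 0 and 14 lowest of the 6 arrays.

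Lysosome and autophagy genes differed little one by one and in the same direction: 26 of 27 (96.3%, against 56.7% of all genes) were above 0. At least 2-fold higher were 3 (11.1%, against 4.49% of all genes), and the median was 0.54. The list's median over BRAF-on was 0.56 with SNAIL2, 0.28 with ZEB2 and -0.05 with TWIST1. Ctsa, the protective protein of lysosomal galactosidase, had 8332 with ZEB1, against 3525 in BRAF-on and 2796 in BRAF-off. Gabarapl1, an autophagosome protein gene, had 5081 with ZEB1, against 2267 in BRAF-on and 2212 in BRAF-off. Glb1, the galactosidase that the senescence stain detects, had 1734 with ZEB1, against 783 in BRAF-on and 811 in BRAF-off. Its promoter is shown because TFEB and TFE3, which drive lysosome genes and are relatives of MITF, bind CACGTG, here in capitals.
Glb1: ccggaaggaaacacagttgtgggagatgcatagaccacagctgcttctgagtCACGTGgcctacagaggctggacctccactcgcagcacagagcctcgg
The window is chr9:114400978-114401077 on the plus strand in GRCm38.p6. CACGTG stood in 31.0% of 29 promoters of the lysosome list (88.9% of its genes had one), in 33.3% of 24 promoters of the FOXO and quiescence list (95.5% had one), and in 9.8% of the promoters of all genes entered.

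Stress and metabolic genes were less even. Of 23 glycolysis and hypoxia genes 3 were at least 2-fold higher, with a median of 0.22, led by Ddit4, an inhibitor of mTOR signalling, at 996 with ZEB1, against 341 in BRAF-on and 276 in BRAF-off. Of 24 unfolded protein and ATF4 response genes 3 were at least 2-fold higher, with a median of 0.02. They were Nupr1, a stress-induced chromatin protein gene, at 8336 with ZEB1, against 2376 in BRAF-on and 1889 in BRAF-off, Vldlr (1.21) and Dnajb9 (1.19). Of 21 NRF2 antioxidant genes 1 was at least 2-fold higher, Osgin1 (1.04). Genes that serve every cell lay close to BRAF-on. None of 30 respiratory chain genes was 2-fold apart (median 0.07), and 1 of 29 cytoplasmic ribosomal protein genes was, Rpl12 (-1.08), with a median of 0.03.

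Tagln and Acta2, genes of the contractile apparatus, were among the lower ones, while no other gene of the smooth muscle and actin list was counted past 2-fold. Tagln, which encodes the actin-binding protein SM22, had 278 on the ZEB1-labelled array, against 1596 in BRAF-on and 2441 in BRAF-off, 5.74-fold lower than BRAF-on. Acta2, smooth muscle actin, had 2017 with ZEB1, against 5236 in BRAF-on and 5701 in BRAF-off. Both were lowest of the 6 arrays on the ZEB1-labelled one. These were the 2 of 20 smooth muscle and actin genes counted past 2-fold, and the list's median was -0.19. A fold that is a bound can be larger than counted. Cnn1 was at least 1.98-fold lower, at 13.1 with ZEB1, under the floor, against 126 in BRAF-on and 102 in BRAF-off. Ccn2, Ankrd1 and Ccn1, the best-known targets of the mechanical sensor YAP, were the 3 of 17 YAP targets at least 2-fold lower. Ccn2 had 1078 with ZEB1, against 3534 in BRAF-on and 4224 in BRAF-off. Ankrd1 had 1165 with ZEB1, against 3802 in BRAF-on and 3524 in BRAF-off, and Ccn1 5496 with ZEB1, against 15011 in BRAF-on and 15856 in BRAF-off. The YAP list as a whole had a median of -0.17, with 8 members above 0 and 9 below.

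Epithelial genes, the class ZEB1 is known to repress, were mostly under the floor, and none of those entered was 2-fold apart. Cdh1, which encodes E-cadherin, lay under the floor on all 6 arrays, at 11.6 on the ZEB1-labelled array, 34.3 in BRAF-on and 28.8 in BRAF-off, so no fold is given. Of 34 epithelial junction and polarity genes 33 were named by a probe set and 13 entered. Of the 33, 23 were under the floor on the ZEB1-labelled array and 23 in BRAF-on. For those under it in BRAF-on a lower level could not be seen. None of the 13 was 2-fold apart, against 8.42% of all genes entered. Above 0 were 10 of the 13, and the median was 0.25. The largest was Jup, plakoglobin, at 319 with ZEB1, against 169 in BRAF-on and 103 in BRAF-off, higher on the ZEB1-labelled array. Crb3, a polarity gene that ZEB1 represses in carcinoma cells, had 104 with ZEB1, against 68.6 in BRAF-on and 35.9 in BRAF-off, near the floor.

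Mesenchymal and matrix genes had a few higher members. Of 21 mesenchymal genes 3 were at least 2-fold higher and none 2-fold lower, with a median of 0.26. Fap, a fibroblast surface protease, had 288 with ZEB1, against 80.6 in BRAF-on and 62.4 in BRAF-off, and 582 with TWIST1. Pdgfrb, the PDGF receptor of mural cells, had 3997 with ZEB1, against 1948 in BRAF-on and 2511 in BRAF-off. Of 23 collagen genes 2 were at least 2-fold higher, Col6a1 (1.62) and Col9a3 (1.55), 1 was lower, Col11a1 (-1.06), and the median was 0.23. Of 12 small leucine-rich proteoglycan and matricellular genes 2 were at least 2-fold higher: Bgn, which encodes biglycan, with 629.7 with ZEB1, against 172 in BRAF-on and 340.3 in BRAF-off, and Mgp, an inhibitor of calcification, with 7869 with ZEB1, against 2484 in BRAF-on and 2059 in BRAF-off. Among 22 integrin and laminin chains 3 were at least 2-fold higher, Itgb7, Itgb3 (1.53), a chain used by invasive melanoma cells, and Itga10 (1.23). Of 11 genes of the undifferentiated melanoma state 3 were at least 2-fold higher, Pdgfrb, Cd274 (1.35), which encodes PD-L1, and Nt5e (at least 2.73-fold). Axl, a receptor of that state, lay at 7436 with ZEB1 and 7094 in BRAF-on.

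The largest differences also held genes outside the lists described above. Inmt, which methylates small amines, had a signal of 1116 on the ZEB1-labelled array, against 87.8 in BRAF-on and 48.6 in BRAF-off, 12.7-fold above BRAF-on and the largest measured difference. With TWIST1 Inmt was at 241, and with SNAIL2 and ZEB2 it lay at 80.4 and 77.7. Mustn1, a small nuclear protein gene of muscle and bone, had 828 with ZEB1, against 67.1 in BRAF-on and 37.0 in BRAF-off. Sned1, a matrix protein gene, had 2475 with ZEB1, against 296 in BRAF-on and 252 in BRAF-off, and 282 to 382 on the other 3 factor arrays. Inmt, Mustn1 and Sned1 were each at least 4-fold above every other array. Wfdc18, a protein of the whey acidic protein family, had 1334 with ZEB1, against 245 in BRAF-on and 72.2 in BRAF-off. The hormone gene Stc1 was at least 4.15-fold higher, and Il18bp, a decoy for interleukin 18, at least 3.64-fold.

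Among the lower genes, Rbmx, which encodes a nuclear RNA-binding protein, had 166 with ZEB1, against 848 in BRAF-on and 1038 in BRAF-off. Rassf6, a member of a tumour suppressor family, had 189.9 with ZEB1, against 847 in BRAF-on and 846 in BRAF-off, and 194 with SNAIL2. Ptchd4, a gene with homology to Patched, had 119 with ZEB1, against 549 in BRAF-on and 516 in BRAF-off. Depdc1a, a mitotic gene, had 256 with ZEB1, against 1124 in BRAF-on and 1164 in BRAF-off. The largest bounds were Cttnbp2, a cortactin-binding protein gene (at least 5.32-fold lower), Hpgds, the haematopoietic prostaglandin D synthase (3.93-fold at least), and Poc1b, a centriole gene (3.20-fold at least).

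The array labelled TWIST1 was compared directly, since it too had low pigment genes. In the ratio of ZEB1-labelled over TWIST1-labelled, 508 of 11515 genes (4.41%) lay at or above 2-fold and 381 (3.31%) at or below the inverse, and the median over all genes was 0.08. All 8 melanin and fibril genes were at least 2-fold higher on the ZEB1-labelled array. With TWIST1 7 of the 8 lay under the floor, all but Gpnmb, so the list's median of 4.22 is itself a lower bound. Dct had 9319 on the ZEB1-labelled array and 4.54 with TWIST1, Tyrp1 5999.7 with ZEB1 and 13.1 with TWIST1, and Mlana 1533 with ZEB1 and 42.1 with TWIST1. On the ZEB1-labelled array these 3 remained measured. Mitf had 1410.3 with ZEB1 and 245 with TWIST1, a log2 ratio of 2.53, and Sox10 2375 with ZEB1 and 1941 with TWIST1.

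Division genes lay lower on the ZEB1-labelled array than on the TWIST1-labelled one. Of 163 such genes 64 were at least 2-fold lower, none was 2-fold higher, and the median was -0.88. Tagln and Acta2 were lower too: Tagln had 278 on the ZEB1-labelled array and 6564 with TWIST1, and Acta2 2017 with ZEB1 and 18263 with TWIST1. Of 20 smooth muscle and actin genes 4 were at least 2-fold lower and none higher. Small leucine-rich proteoglycans had 6 of 13 lower and 1 higher, and collagens 5 of 24 lower and none higher. Interferon, presentation and complement genes lay close to each other on these 2 arrays, with 3 of 72 at least 2-fold higher, 1 lower and a median of 0.17. Cdkn1a was 2287 on the ZEB1-labelled array and 598 with TWIST1, a log2 ratio of 1.93, and Mmp13 7843 with ZEB1 and 1137 with TWIST1, one of 2.79.

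**Figure D4:**
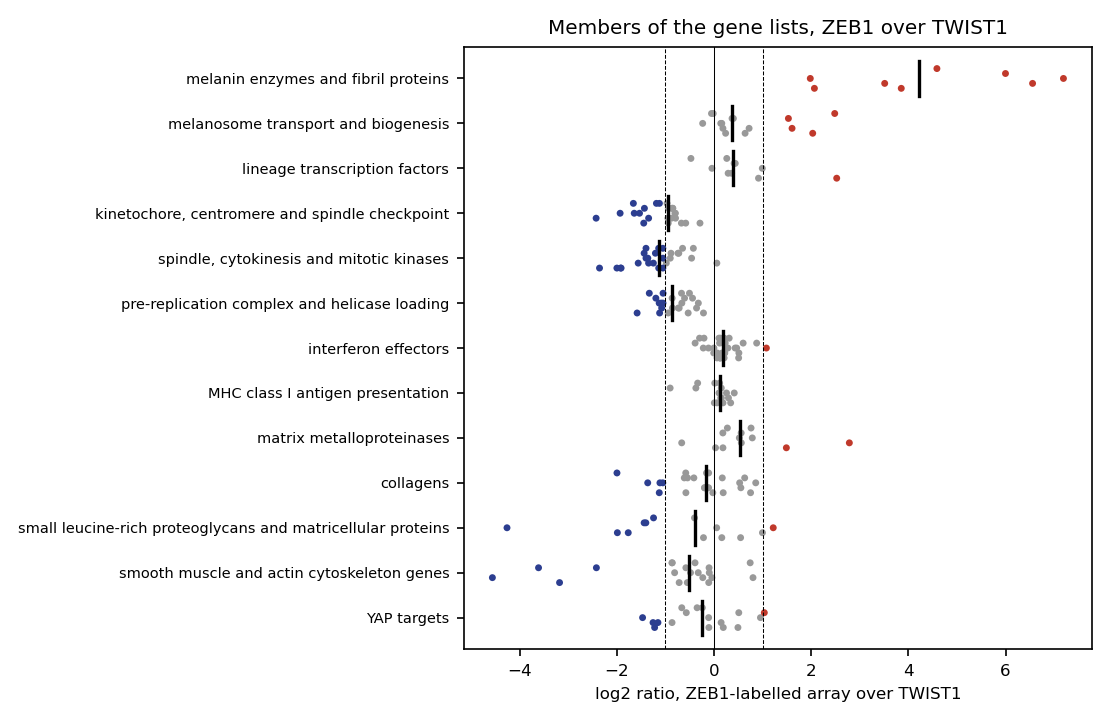
Each point is a member of a gene list at its log2 ratio of the ZEB1-labelled array over the TWIST1-labelled array, red where at least 2-fold higher and blue where at least 2-fold lower; the black bars are the list medians. The melanin genes lie far above 0 (median 4.22, a lower bound, since 7 of the 8 were under the floor with TWIST1), the mitotic and replication genes below 0, and the interferon effectors around 0.18.

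Melanocyte markers fit the labelled cell type on the ZEB1-labelled, BRAF-on and BRAF-off arrays, and most were lost on the TWIST1-labelled one. All 8 melanocyte markers were above the floor on the ZEB1-labelled array, in BRAF-on and in BRAF-off, with summed signals of 25789, 65208 and 88578 in that order. With TWIST1 the summed signal was 2352, and Tyr, Tyrp1, Dct, Pmel, Mlana and Kit were under the floor. Schwann cell and glia markers had 6 of 9 genes entered, 1 of them at least 2-fold lower, L1cam (-1.03), and a median of -0.11. Fibroblast markers had 8 of 10 entered, 2 of them higher, and a median of 0.37 over BRAF-on and -0.60 over the TWIST1-labelled array. Keratinocyte markers had 4 of 9 entered, 1 of them higher as a bound.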

How the data were processed

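Total RNA from melan-a cultures was read on Affymetrix mouse arrays with 1 array per group. The deposited signal intensities are linear, and per the submitters' processing notes they come from MAS5 in Affymetrix Expression Console 1.1. The mean of each array, trimmed by 2% at both ends, came to 500.003, so the authors' arrays were on a common scale, and no further normalization was applied. Each array held 45101 probe sets, 64 of them controls. Of the others, 34945 had 1 gene symbol in the platform annotation, 932 had several and 9160 had none. Genes were built from those with 1 symbol. Symbols were updated through Entrez numbers, 34754 of which were in a RefSeq table of assembly GRCm38.p6. Where a gene had several probe sets, the one brightest on average in log2 over the 6 arrays stood for it. Promoters (250 bases before to 50 after a start) are RefSeq's, of GRCm38.p6, matched by symbol, and the sources used here list 1 or more for 9440 of the 11614 genes entered. Counting was tested on simulated arrays, where only bright genes were changed, by well over 2-fold and with little noise. Dim genes and differences near 2-fold were not covered by it. Since no group has a second array, no error or p-value exists, and the number of arrays limits the precision.

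The comparison, the 57 gene lists (1041 of 1131 entries named by a probe set) and the rule for named genes were chosen with earlier results of these data known. The rule takes, each way, the 15 largest ratios with both arrays over the floor and the 8 largest bounds, without clone or model names and genes whose probe sets oppose each other. List members past 2-fold are named too (up to 4 by size where there is none), as are the introduced factors, Braf and Cdh1, and the 10 largest ratios each way over BRAF-off. Of these the text names most. Ccnd1, Cdkn1b, Mdm2, Sox10, Pax3, Gpnmb, Mmp14, Mmp2, Timp1, Fosl1, Jun, Dusp5, Dusp6, Spry2, Myc, Axl, Cnn1 and the macrophage markers under the floor are outside the rule: they were chosen after seeing their values. Alternatives were quantile normalization, centring, other floors, the median of a gene's probe sets, a pseudocount of 1 floor, dropping probe sets shared between transcripts, 3-fold as the size, and BRAF-off as the reference. Python 3.11.15, numpy 2.4.6, pandas 2.3.3, scipy 1.17.1 and matplotlib 3.10.9 were used.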

Additional observations from a re-analysis of the deposited data

Results flagged for a closer look

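Probe sets that the platform annotation pairs with no gene symbol were left out of the gene counts. Of 9160 such probe sets 2819 reached the floor on the ZEB1-labelled array or in BRAF-on. At least 2-fold higher on the ZEB1-labelled array were 80 (2.84%), with a highest log2 ratio of 2.13, and at least 2-fold lower were 100 (3.55%), with a lowest of -2.61. Both shares lie below those of the named genes entered, 4.49% higher and 3.93% lower. The probe sets are listed because the gene counts leave them out, and no excess of differences was seen in them over BRAF-on. Over BRAF-off 124 (4.52%) were at least 2-fold higher and 153 (5.58%) at least 2-fold lower of 2744 compared. The shares over the named genes were 7.06% and 5.20%. Of the 80 higher ones 59 were also at least 2-fold above BRAF-off, and of the 100 lower ones 80 were also at least 2-fold below it, with the ZEB1-labelled array in both ratios. No gene is named for them here.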

How the results depend on the processing

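The 522 higher and 456 lower genes became 192 and 232 with the floor at the 75th percentile, where 7515 genes entered, and 112 and 85 with 3-fold as the size that counts. With the floor as a pseudocount 344 were higher and 341 lower, and against BRAF-off 812 were higher and 598 lower. The other alternatives gave 370 to 748 higher and 395 to 593 lower genes, and the median of all genes lay between 0.04 and 0.08 throughout. Of the lists with at least 10 members and a median past 0.5, the following moved by over 0.25. With the floor at the 75th percentile the cyclin list had -0.69, the E2F, MYB and FOXM1 list -0.60, the recombination list -0.76, the undifferentiated melanoma list 0.20 and the metalloproteinase list 1.41 (1.34 at the 60th percentile). Antigen presentation had 0.94 without probe sets that match several transcripts and 1.11 against BRAF-off. The undifferentiated melanoma list had 0.26 with the median over probe sets and 0.99 against BRAF-off. The cause of these moves was not tested. Over all 53 lists compared, 443 of 477 values moved by no more than 0.25 and none of those past 0.5 changed sign. Of 457 values for 54 named genes 428 stayed at least 2-fold and none changed direction. These genes were chosen for large ratios, without those whose probe sets oppose each other, so a change of direction was unlikely from the start. Genes that no longer entered were not counted: with the floor at the 75th percentile 29 stayed at least 2-fold and 8 did not. Dim signals are the less certain ones. No paired analysis was possible because each group has 1 array.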
